A study of Mus musculus with 21 samples.

Results

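The comparison described here sets the late weeks of chronic UV irradiation against the early weeks in mouse skin. The late group is the 6 arrays of UV weeks 6 and 8 and the early group the 6 arrays of UV weeks 1 and 2, chosen by their sample titles, which makes 12 of the 21 arrays of the study. RNA from back skin of Hos:HR-1 mice, which are albino and hairless, was hybridised to Affymetrix Mouse Genome arrays, 3 arrays for each group. The study allotted 3 mice to each group, so each array was taken as 1 mouse. The mice were female, 6 weeks old at purchase and kept for 1 week before the study, and all irradiated mice were exposed 3 times weekly to a lamp emitting mainly UVB with the UVC removed by a filter. The dose at each exposure rose by 1 MED (the minimal erythema dose, the smallest dose that reddens the skin) each week up to 4 MED, so that the mice of UV week 1 received 1 MED, those of UV week 2 received 2 MED, and those of UV weeks 4, 6 and 8 received 4 MED at the last exposures. Non-irradiated mice were taken at week 1 and at week 8 only. Late and early mice therefore differed in age, in the dose reached and in the number of exposures at once, and these cannot be told apart in this comparison. The skin is a mixture of cell types, and fewer cells of a type and less RNA for each cell cannot be told apart either.

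The epidermis renews itself from a basal layer whose progeny harden into cornified cells, joined by desmosomes that serine proteases cut and protease inhibitors protect. The dermis beneath it is a matrix of collagen and glycoproteins made by fibroblasts, and it holds hair follicles, fat and a thin sheet of striated muscle. UVB is absorbed mainly in the epidermis, and repeated exposure thickens the epidermis and depletes dermal collagen, which is known as photoaging.

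Levels are given as log2 of the deposited probe set intensities, with 1 probe set, the brightest on average, for each gene. Of the probe sets, the lowest 20% of each array lay under a log2 intensity of 3.33 to 3.63, and levels near these values are at the bottom of the scale. Correlations between arrays across probe sets were between 0.971 and 0.995 among the early arrays and between 0.962 and 0.989 among the late arrays (15 pairs each). The log2 ratio of the 3′ to the 5′ probe sets of beta-actin, which rises as RNA is degraded, was 3.42 ± 1.01 (SD, n = 6) in the early arrays and 4.07 ± 1.23 in the late arrays. This difference of 0.65 did not reach significance (exact permutation test, two-sided, p = 0.340), which does not show that RNA quality was equal. Within the early group the arrays of UV week 1 were at 2.71, 4.39 and 4.88 and those of UV week 2 at 2.26, 2.99 and 3.30. A beta-actin ratio above 4 was seen in 2 early arrays and 4 late arrays. A fit without the arrays with such a ratio is given beside many of the results it changes. It leaves 4 early and 2 late arrays, the late ones being UV week 6 array 443 and UV week 8 array 551.

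In total, 70 probe sets were at least 2-fold higher in the late weeks and 125 at least 2-fold lower with an adjusted p no higher than 0.05 (limma), 0.173% and 0.308% of the 40540 probe sets tested. Read as genes, 40 of 17403 were called higher (0.23%) and 83 lower (0.477%). The 3 largest rises were those of Tmprss11a, a serine protease, Jchain, which joins immunoglobulin subunits, and Akr1d1, a steroid reductase. Among the lower genes, 35 of 83 were keratins or hair keratin-associated proteins, including keratins outside the hair such as Krt77. The other 48 included further hair follicle genes, such as Padi3, S100a3 and Lhx2, besides clock genes, fat genes and matrix genes. Without a minimum fold, 478 genes (2.75%) were higher and 770 (4.42%) lower. These counts were 2438 and 3059 without UV week 8 array 551, between 167 and 303 higher without any 1 of UV week 1 array 116, UV week 2 arrays 222 and 225, UV week 6 arrays 441 and 445 and UV week 8 arrays 552 and 555, and between 320 and 497 lower without any 1 of the same arrays other than 441. For 133 genes (0.764%) all late arrays lay above all early arrays, and 17 of the 40 genes called higher were among these. For 189 genes (1.09%) all late arrays lay below, with 15 of the 83 genes called lower. The number of probe sets called (70 higher and 125 lower) rested on single arrays: without UV week 8 array 551 it was 111 higher and 634 lower, and without any other array it was between 52 and 84 higher and between 79 and 170 lower.

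Within each pair of weeks few probe sets were called. Between UV week 2 and UV week 1, 4 probe sets were called (0.00987%), and without 1 array 0 to 4 were, except 515 without UV week 1 array 116. The 2 genes among these were Tpsab1, a mast cell tryptase, which rose by 1.80, and Krtap19-4, a hair keratin-associated protein, which fell by 3.25 on the log2 scale. The 2 early weeks were not alike, however. At an unadjusted p of at most 0.05 (limma) they differed in 8947 probe sets (22.1%), beside 10543 (26%) for late against early. At 2-fold with no test 943 were higher and 140 lower in UV week 2. Between UV week 8 and UV week 6 none was called by limma (0%), with 1792 of 40540 probe sets (4.42%) at an unadjusted p of at most 0.05, and 10 were called without UV week 8 array 551 and 1 without UV week 6 array 443. Taken a week at a time, UV week 6 differed from UV week 1 in 88 probe sets (0.217%) and from UV week 2 in 321 (0.792%), and UV week 8 differed from UV week 1 in 172 (0.424%) and from UV week 2 in 298 (0.735%). These 4 comparisons share arrays. In each of them 8 of the 40 higher genes and 5 of the 83 lower genes were called 2-fold or more in the same direction.

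The non-irradiated mice show how far these genes moved without UV from week 1 to week 8. Late minus early pools UV weeks 6 and 8 and UV weeks 1 and 2, which on average is a shorter span. Between the control weeks, 28 of the 40 genes called higher rose by less than 0.5 on the log2 scale or fell. Wfdc12 and Lce3f fell most among them, by -1.80 and -1.09. The change was at least 1 in the same direction for 5 of the 40. The median change of these 40 genes was 0.23 between the control weeks and 1.4 between early and late UV weeks. Of the 83 genes called lower, 76 were also lower in control week 8 than in control week 1, 48 of them by at least 1, and their median change was -1.24 between the control weeks and -1.49 between the UV weeks. Among all genes, 39 (0.224%) were at least 2-fold higher and 92 (0.529%) at least 2-fold lower in control week 8 without a test. Relative to control week 1, the genes called higher were at a median of 0.49 in the early weeks and 1.87 in the late weeks, and the genes called lower at -0.79 and -2.23.

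**Figure D1:**
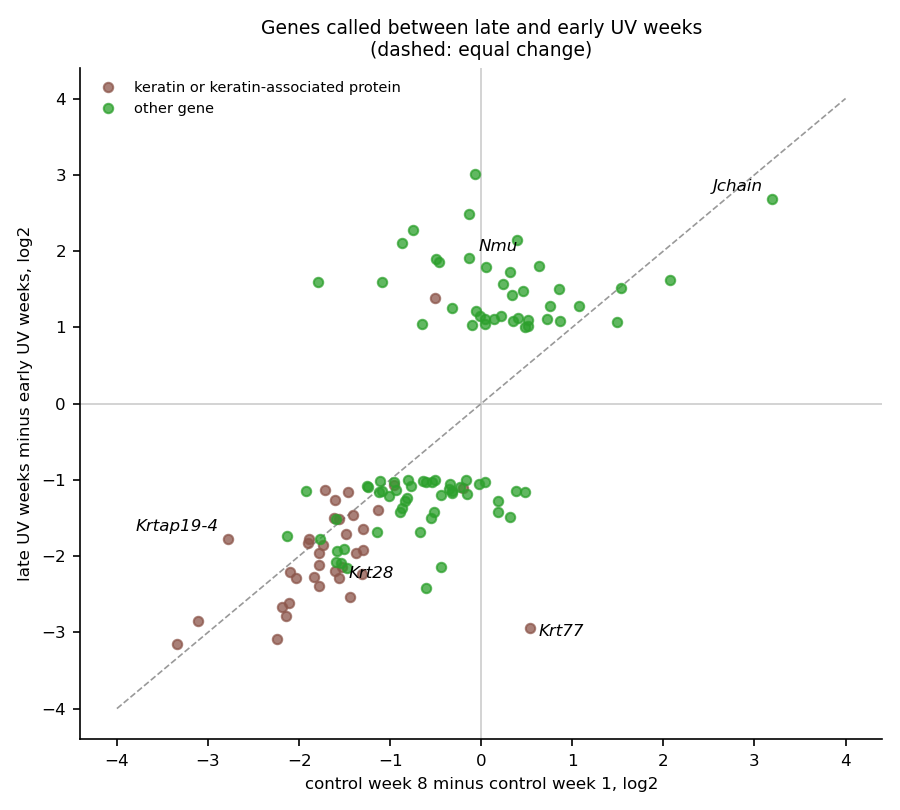
Each point is 1 of the 123 genes called between late and early UV weeks, with its log2 change between control week 1 and control week 8 on the horizontal axis and between early and late UV weeks on the vertical axis. Keratins and hair keratin-associated proteins are shown in brown and other genes in green, and points on the dashed line changed equally. On the horizontal axis 28 of the 40 higher genes rose by less than 0.5 or fell, such as Wfdc12 (-1.80) and Lce3f (-1.09). In the controls 48 of the 83 lower genes fell by at least 1.

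Whether the 2 changes differed was tested for UV weeks 8 and 1, the only UV weeks with controls of the same week. The change of UV week 8 from UV week 1 beyond that of control week 8 from control week 1 was called for 1 probe set (0.00247%) and for no gene with a single symbol at an adjusted p of at most 0.05 (limma). At an unadjusted p of at most 0.05, 393 genes (2.26%) were higher and 368 (2.11%) lower in this test. Together these are 4.37% of all genes, under the share of 0.05 that this threshold would pass with no difference. Without UV week 8 array 551, 28 probe sets were called. When the control change from week 1 to week 8 was subtracted from late minus early, which spans less time on average, 24 of the 40 higher genes kept a 2-fold difference in the same direction and 13 of the 83 lower genes did. Of these genes, 1 higher and no lower gene passed an adjusted p of 0.05 after the subtraction.

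Several serine proteases of the epidermis and their inhibitors rose in the late weeks. Of the 22 epidermal proteases listed 20 were tested, of which 5 were higher and none lower with an adjusted p no higher than 0.05, and of the 23 protease inhibitors and serpins 15 were tested, of which 6 were higher and none lower. At that threshold 2.75% of all genes were higher and 4.42% lower. The medians were 0.14 and 0.43 beside 0.02 over all genes, and 0.14 and -0.10 between the control weeks. Tmprss11a, a membrane-bound serine protease, had a log2 intensity of 3.23, 3.93 and 5.78 (lowest, median and highest) in the early arrays and 5.27, 7.43 and 8.96 in the late arrays. It was near the bottom of the scale in all 6 control arrays (3.63 to 3.83) and overlapped between early and late only through UV week 2 array 225, the highest early array. Tmprss11a rose by 3.0 ± 0.48 on the log2 scale (SE, adjusted p = 0.00204, limma, n = 6 early and 6 late arrays), the largest rise among the genes called. Tmprss11d, known in humans as airway trypsin-like protease, was at 3.11, 3.35 and 3.79 in the early arrays and 4.07, 4.17 and 5.12 in the late arrays, all late arrays being above all early ones. It rose by 0.94 ± 0.14 (adjusted p = 0.00137) from a level near the bottom of the scale. Tmprss11f, of the same family, rose by 0.70 ± 0.11 (adjusted p = 0.0016).

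Klk13, a kallikrein protease, was measured at 8.21, 9.32 and 9.73 in the early arrays and 10.59, 11.06 and 11.79 in the late arrays. No late array overlapped with an early one, and the controls lay at the early level (8.36 to 9.48). Klk13 rose by 1.90 ± 0.23 (adjusted p = 0.000278), against -0.49 between the control weeks. Among the inhibitors, Spink12, a Kazal-type protease inhibitor, was at 5.45, 5.64 and 6.23 in the early arrays and 6.55, 7.70 and 9.13 in the late arrays, again without overlap. It rose by 2.15 ± 0.37 (adjusted p = 0.00319). Wfdc12, an inhibitor of the whey acidic protein family, was at 9.39, 10.71 and 12.16 early and 11.74, 12.36 and 13.05 late, with overlapping arrays. It rose by 1.59 ± 0.29 (adjusted p = 0.00472), whereas it changed by -1.80 between the control weeks (adjusted p = 0.174). Serpinb6c, a serpin, rose by 1.05 ± 0.20 (adjusted p = 0.00706), without overlap, and Spink5, which encodes the inhibitor of kallikreins lost in Netherton syndrome, rose by 0.43 ± 0.08 (adjusted p = 0.0079), without overlap. In the fit without the arrays of high beta-actin ratio, 3 of 20 proteases and 1 of 15 inhibitors were higher, where 0.23% of all genes were, and the medians were 0.52 and 0.51. Klk13 was then at 1.78 (adjusted p = 0.0392), Spink12 at 1.36 (adjusted p = 0.0354), Tmprss11a at 2.16 (adjusted p = 0.0603) and Wfdc12 at 1.07 (adjusted p = 0.257).

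**Figure D2:**
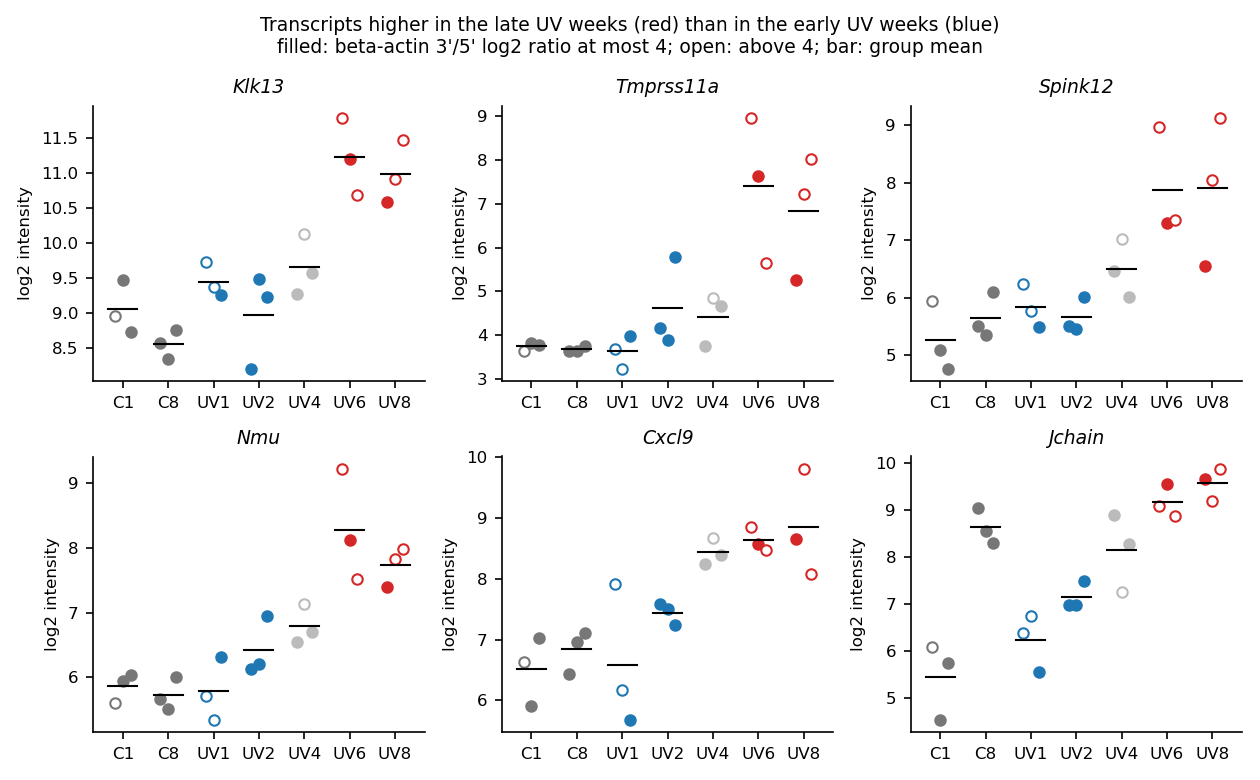
Log2 intensity of 6 transcripts that rose in the late weeks, 1 point for each array, in the control groups (C1 and C8), UV weeks 1 and 2 (blue), UV week 4 (light grey) and UV weeks 6 and 8 (red), with a bar at each group mean; open points are arrays with a beta-actin ratio above 4. For Klk13, Tmprss11a, Spink12 and Nmu no control array lay above the highest early array, whereas Jchain was at 8.31 to 9.05 in control week 8, overlapping with its late level.

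Among cornified envelope genes, which build the shell of dead keratinocytes, 7 of 33 tested (41 listed) were higher and 1 was lower, beside 2.75% and 4.42% of all genes. Their median was 0.20, against 0.02 between the control weeks. Leaving out UV week 2 array 222 reduced the higher members to 4, and none passed in the fit without the arrays of high ratio, where the median was 0.23. Rptn, which encodes repetin, was at 9.17, 10.44 and 12.21 in the early arrays and 11.75, 12.70 and 13.39 in the late arrays. The arrays overlapped through UV week 2, whose array 225 was above the lowest late array, and control week 8 was at 9.35 to 9.59. Rptn rose by 2.10 ± 0.38 (adjusted p = 0.00473). Lce1g, a late cornified envelope gene, rose by 1.08 ± 0.15 (adjusted p = 0.000841), and Sprr2d, a small proline-rich protein, rose by 0.92 ± 0.20 (adjusted p = 0.0122). Lce1m fell by 0.96 ± 0.16 (adjusted p = 0.00296), the only member that passed on the lower side (2 did without UV week 8 array 551). Members of the Lce and Sprr families are near-identical in sequence, so signals of single members are uncertain. Defb1, a defensin, was at 9.95, 10.24 and 10.54 in the early arrays and 10.77, 11.29 and 11.67 in the late ones, without overlap, and rose by 1.02 ± 0.15 (adjusted p = 0.000984). Defb3 rose by 1.79 ± 0.40 (adjusted p = 0.0159) with overlapping arrays. Krt6b, a keratin of wounded epidermis, rose by 1.39 ± 0.37 (adjusted p = 0.0342), but its adjusted p rose above 0.05 without any 1 of UV week 1 arrays 114 and 116, UV week 2 array 222, UV week 6 arrays 441 and 443 or UV week 8 arrays 552 and 555 (up to 0.103). Of the 6 wound and hyperproliferation keratins it was the only one higher, Krt75 being lower, and their median was -0.03. Without the arrays of high ratio none was higher and 1 lower, with a median of 0.42. Of 9 keratins of the resting epidermis between follicles 2 were lower and none higher, with a median of -0.12 against 0.20 between the control weeks. With 1 array left out 1 to 3 were lower, and without the arrays of high ratio the median was 0.03. Krt77, a keratin of the resting epidermis, was at 6.38, 9.45 and 11.25 in the early arrays and 5.54, 6.19 and 7.72 in the late arrays. All late arrays were below 8, all controls were above 12, and the early arrays lay between and overlapped with the late ones through UV week 2. Krt77 fell by 2.95 ± 0.51 (adjusted p = 0.00363), on top of a difference of -3.17 between early weeks and control week 1, and it was at -1.77 (adjusted p = 0.283) without the arrays of high ratio.

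Several genes of signalling peptides, receptors and enzymes rose without overlap between late and early arrays. Nmu, the precursor of the neuropeptide neuromedin U, was at 5.34, 6.17 and 6.94 in the early arrays and 7.40, 7.91 and 9.22 in the late arrays. No late array overlapped with an early one. The arrays of UV week 1 (5.34 to 6.32) lay around those of the controls (5.51 to 6.03), and those of UV week 2 (6.13 to 6.94) above them. Nmu rose by 1.90 ± 0.24 (adjusted p = 0.000372). Tacr3, the receptor of neurokinin B, was at 5.93, 6.22 and 6.53 early and 6.92, 7.90 and 8.17 late, the lowest late array being UV week 8 array 551. It rose by 1.57 ± 0.16 (adjusted p = 7.23e-05). Il13ra2, a receptor that binds interleukin-13 without the usual signalling, was at 7.21, 7.61 and 8.29 in the early arrays and 8.82, 9.24 and 9.52 in the late arrays and rose by 1.5 ± 0.14 (adjusted p = 7.23e-05). It changed by 0.85 between the control weeks. Ptprz1, a receptor-type tyrosine phosphatase, rose by 1.86 ± 0.31 (adjusted p = 0.00253). Ang4, an antimicrobial ribonuclease, rose by 1.28 ± 0.13 (adjusted p = 7.23e-05), and it also rose between the control weeks, by 1.07 (adjusted p = 0.0336). These 5 genes passed the test in the fit without the arrays of high ratio too, with differences between 1.29 for Tacr3 and 1.75 for Ptprz1, whereas Bex1 rose by 1.47 ± 0.23 (adjusted p = 0.00149) and was at 0.84 (adjusted p = 0.177) in that fit. Ereg, a ligand of the EGF receptor, rose by 1.14 ± 0.23 (adjusted p = 0.0088) with overlap, the only 1 of 10 EGF receptor family members and ligands tested that passed (2 were higher without UV week 8 array 552 and 2 lower without UV week 8 array 551).

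The promoters of the called genes were searched for known motifs, since AP-1 factors answer to UV and Cxcl9 to interferon. The AP-1 site TGANTCA was present in the 250 bases before the start of 7 of the 29 higher genes with a promoter sequence (24.1%), 9 of 64 lower genes (14.1%) and 6.59% of the 13831 genes tested that had one, on either strand. The core of the interferon-stimulated response element, GAAANNGAA, was present in 5 of 29 (17.2%), 13 of 64 (20.3%) and 7.45%. Searched besides these, the D-box TTATGNAA was present in 4 of 29 (13.8%), 5 of 64 (7.81%) and 2.56%. The sterol element core CACCCCAC was present in 0 of 29 (0%), 3 of 64 (4.69%) and 3.42%. Rptn (chr3:93393449-93393698, + strand), Nmu (chr5:76363778-76364027, - strand) and Cxcl9 (chr5:92328080-92328329, - strand) are shown, from RefSeq on GRCm38.p6, as called genes that carry 1 match each, beginning at base -96, -171 and -175 from the start site. Capitals mark the AP-1 match in Rptn and Nmu and the response element match in Cxcl9, written 5′ to 3′ on the strand of the gene.
Rptn: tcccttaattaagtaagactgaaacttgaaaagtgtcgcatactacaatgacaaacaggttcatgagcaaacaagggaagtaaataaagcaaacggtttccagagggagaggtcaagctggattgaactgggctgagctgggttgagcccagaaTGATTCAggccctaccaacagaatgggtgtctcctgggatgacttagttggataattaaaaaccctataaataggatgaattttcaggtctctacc
Nmu: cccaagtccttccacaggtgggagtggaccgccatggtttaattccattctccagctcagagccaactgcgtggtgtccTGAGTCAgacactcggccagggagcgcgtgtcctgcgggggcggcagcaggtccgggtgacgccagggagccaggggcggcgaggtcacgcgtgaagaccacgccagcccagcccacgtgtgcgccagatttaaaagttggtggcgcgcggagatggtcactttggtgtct
Cxcl9: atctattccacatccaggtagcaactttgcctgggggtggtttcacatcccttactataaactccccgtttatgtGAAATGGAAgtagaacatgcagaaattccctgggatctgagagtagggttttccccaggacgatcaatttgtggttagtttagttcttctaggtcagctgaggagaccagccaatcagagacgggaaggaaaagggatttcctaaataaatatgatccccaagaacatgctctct
These matches are a description of the letters in the window and no measure of binding.

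Of the immune genes, 2 chemokines that attract T cells through Cxcr3 rose. Cxcl9 was at 5.68, 7.37 and 7.92 in the early arrays and 8.08, 8.61 and 9.81 in the late arrays, without overlap. It rose by 1.73 ± 0.32 (adjusted p = 0.0052) and changed by 0.32 between the control weeks. Cxcl11, another ligand of Cxcr3, was at 6.07, 6.93 and 7.12 early and 7.26, 8.01 and 9.38 late, also without overlap, and rose by 1.42 ± 0.25 (adjusted p = 0.00362). Both passed in the fit without the arrays of high ratio. The third ligand, Cxcl10, was at 5.88, 6.64 and 7.03 early and 6.83, 7.38 and 7.61 late with overlap, a difference of 0.65 (adjusted p = 0.0595). Besides Cxcl9 and Cxcl11, none of the 20 T cell genes and Cxcr3 chemokines tested passed, and 5 were higher and 1 lower without UV week 8 array 551. The T cell markers Cd3e and Cd3g did not pass (adjusted p = 0.643 and 0.333), with a summed intensity of 247.4 to 455.4 in the early arrays and 271.5 to 332.3 in the late arrays. Of 29 interferon-stimulated genes tested 1 was higher, beside 2.75% of all genes, with a median of 0.17 against 0.25 between the control weeks. There were 8 higher without UV week 8 array 551 and 2 without UV week 6 array 445. The 1 higher in all arrays was Ifih1, a sensor of double-stranded RNA, which rose by 0.72 ± 0.15 (adjusted p = 0.012). None of 18 macrophage genes passed, and 2 were higher and 2 lower without UV week 8 array 551. Of 19 interleukin-1 family genes and neutrophil chemokines 1 was lower and 1 higher, beside 4.42% and 2.75% of all genes, with a median of 0.10 against 0.21 between the control weeks. Il1r2, a decoy receptor for interleukin-1, fell by 0.67 ± 0.12 (adjusted p = 0.0041), without overlap. Il1f6, an interleukin-1 family cytokine, was at 8.36, 9.38 and 10.36 early and 9.29, 10.55 and 11.45 late, with overlap, and rose by 1.10 ± 0.29 (adjusted p = 0.0339). In the fit without the arrays of high ratio 2 of the 19 were higher and none lower, with Il1f6 at 1.37 (adjusted p = 0.0373). The adjusted p of Il1f6 in all arrays rose above 0.05 without any 1 of UV week 1 array 112, UV week 1 array 114, UV week 2 array 222, UV week 2 array 224, UV week 6 array 441, UV week 6 array 443 and UV week 8 array 555 (up to 0.0781).

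Jchain, which joins the subunits of immunoglobulins A and M, was at 5.56, 6.86 and 7.5 in the early arrays and 8.87, 9.38 and 9.88 in the late arrays, without overlap. It rose by 2.68 ± 0.29 (adjusted p = 8.58e-05). Over the control weeks it went from 4.54 to 6.08 in the arrays of week 1 to 8.31 to 9.05 in those of week 8, a rise of 3.19 (adjusted p = 0.00284). Igkv8-30, an immunoglobulin light chain segment, rose by 1.51 ± 0.22 (adjusted p = 0.00113), and changed by 1.53 between the control weeks, which did not pass (adjusted p = 0.101). Igha, the constant region of immunoglobulin A, named after its values were seen, rose by 1.62 ± 0.27 (adjusted p = 0.00291), and changed by 2.07 between the control weeks, which did not pass either (adjusted p = 0.0565). Immunoglobulin genes share sequence, so the signals of single segments are uncertain. The B cell markers Cd79a and Ms4a1 did not pass (adjusted p = 0.299 and 0.758), with a summed intensity of 24.3 to 35.4 in the early arrays and 22.7 to 43.9 in the late arrays.

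Of 15 steroid-metabolizing enzymes tested 2 were higher and 1 lower, beside 2.75% and 4.42% of all genes, with a median of 0.07 against 0.07 between the control weeks. The lower one, Cyp26b1, which breaks down retinoic acid, fell by 0.73 ± 0.21 (adjusted p = 0.0452) with overlap and was lost without any 1 of UV week 1 arrays 114 and 116, the 3 arrays of UV week 2, UV week 6 arrays 441 and 445 and UV week 8 arrays 552 and 555, and 2 were lower without UV week 8 array 551. In the fit without the arrays of high ratio 1 was higher and none lower. Akr1d1, a steroid reductase, was at 3.79, 4.21 and 6.29 in the early arrays and 5.56, 7.37 and 8.87 in the late arrays, with overlap through UV week 2 array 225. The controls were at or below 3.56, and Akr1d1 rose by 2.48 ± 0.45 (adjusted p = 0.00473). Akr1c18, which inactivates progesterone, rose by 1.02 ± 0.18 (adjusted p = 0.00362) without overlap. Hsd17b7, an enzyme of cholesterol synthesis, was at 10.68 to 11.38 in the early arrays and 11.53 to 12.32 in the late arrays, without overlap, and rose by 0.96 ± 0.14 (adjusted p = 0.00113). Of 19 cholesterol synthesis genes 2 were higher, with a median of 0.26 against 0.44 between the control weeks, and of 22 ceramide and barrier lipid genes 4 were higher, with 0.24 against 0.32. These counts were 1 to 3 and 1 to 5 when 1 array was left out, the ceramide count being 1 without UV week 2 array 222 or UV week 8 array 555 and 2 without UV week 1 array 114 or 116 or UV week 6 array 443. The cholesterol count was 1 without any 1 of UV week 1 arrays 114 and 116, UV week 2 arrays 222 and 225, UV week 6 arrays 443 and 445 and UV week 8 array 555, and both were 0 in the fit without the arrays of high ratio, where the medians were larger, at 0.58 for the cholesterol genes and 0.51 for the ceramide genes. Degs2, which makes phytoceramides, rose by 0.94 ± 0.19 (adjusted p = 0.00909). Gsto1, a glutathione transferase, rose by 0.77 ± 0.12 (adjusted p = 0.00149) without overlap and was at 0.04 between the control weeks, the only higher member of 23 antioxidant and glutathione genes, of which 3 were lower (9 without UV week 8 array 551) and whose median was -0.21. None of them passed in the fit without the arrays of high ratio. Asns, the asparagine synthetase, rose by 0.69 ± 0.14 (adjusted p = 0.00811).

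Genes of the hair follicle made up a large part of the fall. All 4 lists of hair genes moved one way: 9 of 12 hair shaft keratins, 12 of 22 hair keratin-associated proteins, 6 of 10 inner root sheath genes and 6 of 15 follicle regulators were lower, and none was higher, beside 4.42% and 2.75% of all genes. The medians were -1.48, -1.80, -2.06 and -0.36. Between the control weeks the medians of the same lists were -1.61, -1.75, -1.31 and -0.38, and 1, 0, 1 and 1 members were lower there, where 0.0517% of all genes were lower and 0.046% higher. Krt28, a keratin of the inner root sheath, was at 8.26, 10.55 and 11.13 in the early arrays and 5.74, 8.14 and 9.03 in the late arrays. The overlap came from UV week 2 array 224, and UV week 8 array 551 lay lowest. Krt28 fell by 2.29 ± 0.41 (adjusted p = 0.00472). Krt72, of the same sheath, was at 7.18, 8.18 and 8.52 early and 5.88, 6.05 and 7.19 late, with UV week 6 array 443 above the other late arrays, and fell by 1.86 ± 0.21 (adjusted p = 0.000136). It fell by 1.74 between the control weeks (adjusted p = 0.03). Krt35, an early keratin of the hair shaft, fell by 2.12 ± 0.38 (adjusted p = 0.00405), and Krt83 fell by 1.17 ± 0.16 (adjusted p = 0.000865), less than its 1.47 between the control weeks (adjusted p = 0.0221). Krt75, a keratin of the follicle's companion layer, fell by 1.96 ± 0.26 (adjusted p = 0.000517).

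Padi3, the enzyme that citrullinates hair proteins, was at 6.57, 7.55 and 8.31 in the early arrays and 3.86, 5.83 and 6.36 in the late arrays, with no overlap. UV week 8 array 551 again lay lowest. Padi3 fell by 1.90 ± 0.34 (adjusted p = 0.00472). S100a3, a calcium-binding protein of the hair cuticle, fell by 2.08 ± 0.36 (adjusted p = 0.00361). Of the keratin-associated proteins, which crosslink the keratins of the shaft, Krtap11-1 was at 7.22, 9.31 and 10.15 early and 3.98, 6.62 and 7.5 late and fell by 2.78 ± 0.48 (adjusted p = 0.00362), and Krtap14 fell by 2.85 ± 0.57 (adjusted p = 0.0088). Krtap19-4 fell by 1.77 ± 0.37 (adjusted p = 0.0104), with -2.78 between the control weeks (adjusted p = 0.0568). Members of this family share sequence, so signals of single members are uncertain. Among regulators, Lhx2, a transcription factor of hair follicle stem cells, and Hoxc13, which is needed for hair keratins, were lower without overlap. Lhx2 fell by 1.14 ± 0.18 (adjusted p = 0.00149), and Hoxc13 fell by 0.96 ± 0.14 (adjusted p = 0.000952). Bmp4, a signal of the dermal papilla, fell by 0.97 ± 0.15 (adjusted p = 0.00148) without overlap. Fgf5, which ends hair growth, fell by 1.73 ± 0.26 (adjusted p = 0.00124), and by 2.13 between the control weeks (adjusted p = 0.0301). Without the arrays of high ratio the medians of the shaft, associated protein and inner root sheath lists were -1.99, -2.46 and -2.65, with 1, 1 and 2 members lower, where 0.362% of all genes were. Of the 2 late arrays in that fit, UV week 8 array 551 was the lowest late array of these lists, with mean log2 intensities of 5.1, 4.5 and 5.5. UV week 6 array 443 was at 7.1, 7.5 and 8.7, so these medians rest largely on array 551. The number of keratin-associated proteins that passed was 3 to 14 when 1 array was left out, with 3 without UV week 2 array 222, 4 without UV week 1 array 116 or UV week 2 array 225 and 6 without UV week 6 array 441 or 445.

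UV week 4, which lies between the weeks compared, held the lowest levels of many hair genes. Of the 83 genes called lower, 44 were at UV week 4 below the late mean, 33 between late and early and 6 above the early mean. Of the 40 genes called higher, 36 were between early and late at UV week 4 and none was above the late mean. The medians of UV week 4 minus early were -3.40 for the keratin-associated proteins and -3.49 for the inner root sheath genes. Krtap11-1 was at 3.74 to 6.93 in the arrays of UV week 4, and Krt28 at 5.67 to 7.70. The 3 arrays of UV week 4 were themselves spread, array 334 having the highest value of both genes. Against the early weeks 56 genes (0.322%) were called lower at UV week 4 and none higher, and against the late weeks 9 (0.0517%) were higher and 1 (0.00575%) lower.

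**Figure D3:**
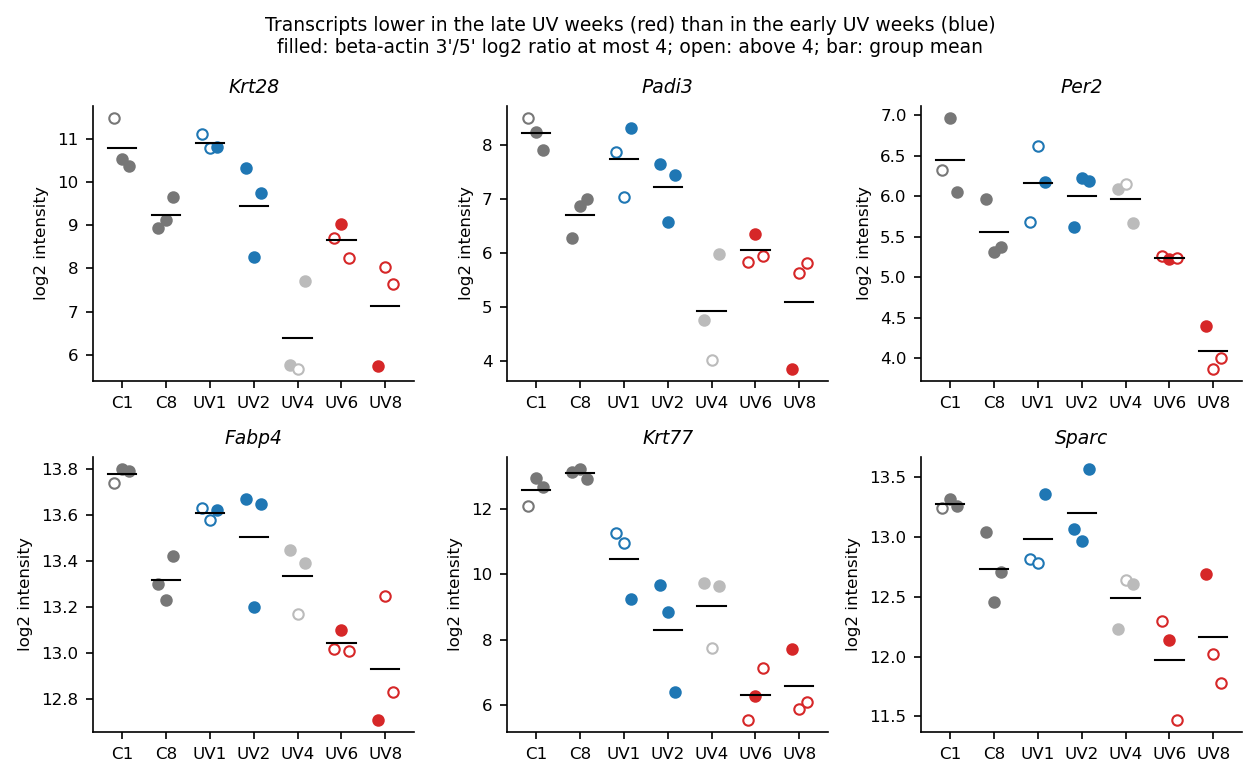
Log2 intensity of 6 transcripts that fell in the late weeks, 1 point for each array, with the same groups, colours, open points and bars as in the plot of rising transcripts. Krt28 and Padi3 were lowest in UV week 4 arrays and in UV week 8 array 551 and were also lower in control week 8 than in control week 1, Krt77 did not fall in the controls, and Per2 was lower in all 6 late arrays than in the early arrays. Per2 also changed by -0.89 between the control weeks.

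Genes of dermal fat fell in part. Of 12 tested 6 were lower and none higher, beside 4.42% and 2.75% of all genes, with a median of -0.61 against -0.59 between the control weeks. When 1 array was left out 3 to 9 were lower, with 3 without UV week 2 array 222 or 225 or UV week 8 array 555. In the fit without the arrays of high ratio 1 was lower, with a median of -0.51. Lep, the hormone leptin, was at 7.42, 7.78 and 8.23 in the early arrays and 4.96, 6.10 and 7.07 in the late arrays, without overlap. It fell by 1.69 ± 0.30 (adjusted p = 0.00399), and changed by -1.15 between the control weeks. Fabp4, the fatty acid binding protein of adipocytes, was at 13.20, 13.63 and 13.67 early and 12.71, 13.02 and 13.25 late, overlapping only through UV week 2 array 224, and fell by 0.57 ± 0.10 (adjusted p = 0.00359). Plin4, a lipid droplet protein, fell by 0.89 ± 0.18 (adjusted p = 0.0103). The 3 adipocyte markers tested (Adipoq, Fabp4 and Cidec) had a summed intensity of 11446 to 17851 in the early arrays and 8170 to 12189 in the late arrays, and 2 of them were lower. Lep passed without the arrays of high ratio (-1.54, adjusted p = 0.0138), and Fabp4 was then at -0.66 (adjusted p = 0.0777).

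Other genes with the largest falls without overlap belong to no list. Adh6a, an alcohol dehydrogenase, was at 6.77, 8.35 and 8.83 in the early arrays and 5.22, 5.43 and 6.67 in the late arrays. Its controls lay above the late arrays, at 8.88 to 10.41. Adh6a fell by 2.42 ± 0.32 (adjusted p = 0.000517), with -0.60 between the control weeks. Gadl1, a decarboxylase of acidic amino acids, was at 6.59, 7.21 and 7.87 early and 4.34, 4.98 and 6.10 late and fell by 2.14 ± 0.26 (adjusted p = 0.000276), with -0.44 between the control weeks. Sema3d, a secreted semaphorin, fell by 1.16 ± 0.16 (adjusted p = 0.000828), while it changed by 0.48 between the control weeks. Fmo2, a flavin monooxygenase, fell by 1.5 ± 0.21 (adjusted p = 0.000865), Slc1a5, the neutral amino acid transporter that takes up glutamine, fell by 1.28 ± 0.20 (adjusted p = 0.00145), and Ptgfr, the receptor of prostaglandin F, fell by 1.24 ± 0.17 (adjusted p = 0.000841). Between the control weeks Fmo2, Slc1a5 and Ptgfr changed by -0.55, -0.84 and -0.81. Of these 6 genes Sema3d alone missed the threshold in the fit without the arrays of high ratio (-0.99, adjusted p = 0.0969).

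Clock genes were shifted. Of 18 tested 2 were higher and 7 lower, beside 2.75% and 4.42% of all genes, and with 1 array left out 2 were higher and 6 to 10 lower. In the fit without the arrays of high ratio none was higher and 2 lower, with a median of -0.27 against -0.32 in all arrays. Per2, a repressor of the clock, was at 5.62, 6.18 and 6.63 in the early arrays and 3.87, 4.81 and 5.26 in the late arrays, without overlap. The 3 arrays of UV week 8 (3.87 to 4.40) lay below those of UV week 6 (5.23 to 5.26). Per2 fell by 1.42 ± 0.18 (adjusted p = 0.000473), beside -0.89 between the control weeks. Dbp, a clock-driven transcription factor, was at 9.69, 9.78 and 10.13 early and 7.70, 8.59 and 9.45 late and fell by 1.16 ± 0.15 (adjusted p = 0.00053), beside -1.12 between the control weeks (adjusted p = 0.0665). Tef, a relative of Dbp, fell by 0.85 ± 0.13 (adjusted p = 0.00137). Arntl, an activator of the clock whose level runs opposite to that of Per2 over the day, rose by 0.63 ± 0.11 (adjusted p = 0.00306) without overlap, and rose by 0.93 between the control weeks (adjusted p = 0.0256). The hour at which skin was taken is not given in the sources used here, and its part in these values was not tested. Among immediate early genes, which respond within the hour to many stimuli, 4 of 16 were lower, with 2 to 7 when 1 array was left out, 7 without UV week 8 array 551 and 2 without any 1 of UV week 1 array 116, UV week 2 arrays 222, 224 and 225, UV week 6 array 441 and UV week 8 arrays 552 and 555, and 1 in the fit without the arrays of high ratio (median -0.14 against -0.29). Fos, a subunit of AP-1, was at 11.14, 11.71 and 12.61 in the early arrays, 9.45, 10.39 and 12.32 in the late arrays and 12.19 to 13.37 at UV week 4, so that early and late overlapped. Fos fell by 1.21 ± 0.28 (adjusted p = 0.0177), and Egr1 fell by 1.18 ± 0.21 (adjusted p = 0.00472). Id3, an inhibitor of helix-loop-helix factors, was at 8.20, 8.41 and 8.70 early and 6.81, 7.14 and 7.79 late, without overlap, and fell by 1.15 ± 0.16 (adjusted p = 0.000742), beside -1.09 between the control weeks.

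Part of the genes of the dermal matrix fell in the late weeks, most of those named by less than 2-fold. Of 20 collagens 8 were lower, of 21 enzymes that process and crosslink procollagen 7 and of 24 matrix proteoglycans and glycoproteins 7, and none of these was higher. Over all genes 4.42% were lower and 2.75% higher. The medians were -0.51, -0.53 and -0.57, beside -0.14, -0.10 and 0.00 between the control weeks. Sparc, a glycoprotein that binds collagen, was at 12.78, 13.02 and 13.57 in the early arrays and 11.47, 12.08 and 12.69 in the late arrays. No late array overlapped with an early one, and control week 8, at 12.46 to 13.04, overlapped with both. Sparc fell by 1.03 ± 0.18 (adjusted p = 0.00327). Fn1, fibronectin, was at 11.93, 12.38 and 13.32 early and 11.24, 11.64 and 11.84 late, without overlap, and fell by 0.94 ± 0.15 (adjusted p = 0.00148). Its early arrays were higher at UV week 2 (12.52 to 13.32) than at UV week 1 (11.93 to 12.23). Col4a1 and Col4a2, the collagens of basement membranes, fell by 0.79 ± 0.14 (adjusted p = 0.00359) and by 0.97 ± 0.14 (adjusted p = 0.000888), both without overlap. Col6a1, a collagen of microfibrils, fell by 0.82 ± 0.14 (adjusted p = 0.00362). The interstitial collagens Col1a1 and Col3a1 were at -1.11 and -0.31 and missed the threshold (adjusted p = 0.0563 and 0.0519), and Col1a2 fell by 0.62 (adjusted p = 0.0473).

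Prelp, a proteoglycan that anchors basement membranes, fell by 0.85 ± 0.14 (adjusted p = 0.00211), and Ccdc80, a matrix protein, fell by 0.75 ± 0.12 (adjusted p = 0.00286), both without overlap. Serpinh1, the collagen chaperone HSP47, fell by 0.78 ± 0.17 (adjusted p = 0.0143), Bmp1, the protease that trims procollagen, fell by 0.75 ± 0.14 (adjusted p = 0.00479), and Pcolce2, an enhancer of Bmp1, fell by 1.43 ± 0.29 (adjusted p = 0.0101). Of 22 TGF-beta pathway genes 7 were lower and none higher, beside 4.42% and 2.75% of all genes, with a median of -0.34. In the fit without the arrays of high ratio 1 was lower, with a median of -0.15. Tgfbr3, the co-receptor betaglycan, was at 9.87, 10.97 and 11.15 early and 9.01, 9.41 and 10.19 late with overlap and fell by 1.20 ± 0.22 (adjusted p = 0.00503), and Inhbb, an activin subunit, fell by 0.84 ± 0.15 (adjusted p = 0.00455). Of 20 Wnt ligands and antagonists 5 were lower, among them Sfrp1 and Sfrp4, secreted inhibitors, which fell by 0.60 ± 0.11 (adjusted p = 0.00418) and by 0.73 ± 0.14 (adjusted p = 0.00698), and Lgr6, a stem cell receptor, fell by 1.00 ± 0.14 (adjusted p = 0.000984), all without overlap. Lgr6 changed by -0.09 between the control weeks. In the fit without the arrays of high ratio no collagen, no procollagen enzyme and 1 matrix glycoprotein passed, with medians of -0.42, -0.40 and -0.48. The 5 fibroblast markers (Col1a1, Col1a2, Col3a1, Dcn and Pdgfra) had a summed intensity of 37216 to 62379 in the early arrays and 23164 to 43645 in the late arrays, and 1 of the 5 was lower. The counts rested on single arrays. Without UV week 8 array 551 there were 13 collagens, 14 procollagen enzymes and 13 glycoproteins lower and 2 glycoproteins higher, and without UV week 1 array 116, UV week 2 array 222 or 225, UV week 6 array 445 or UV week 8 array 555 the collagens were 4 or 5. For the enzymes 4 were lower without any of these 5 arrays or UV week 8 array 552, for the glycoproteins 4 without UV week 1 array 116, UV week 2 array 224 or 225, UV week 6 array 445 or UV week 8 array 552 or 555, and for the TGF-beta pathway 2 to 4 without any 1 of 7 arrays (UV week 1 array 116, UV week 2 arrays 222 and 225, UV week 6 arrays 441 and 445 and UV week 8 arrays 552 and 555). For the Wnt genes 3 were lower without UV week 8 array 555, and 1 in the fit without the arrays of high ratio.

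**Figure D4:**
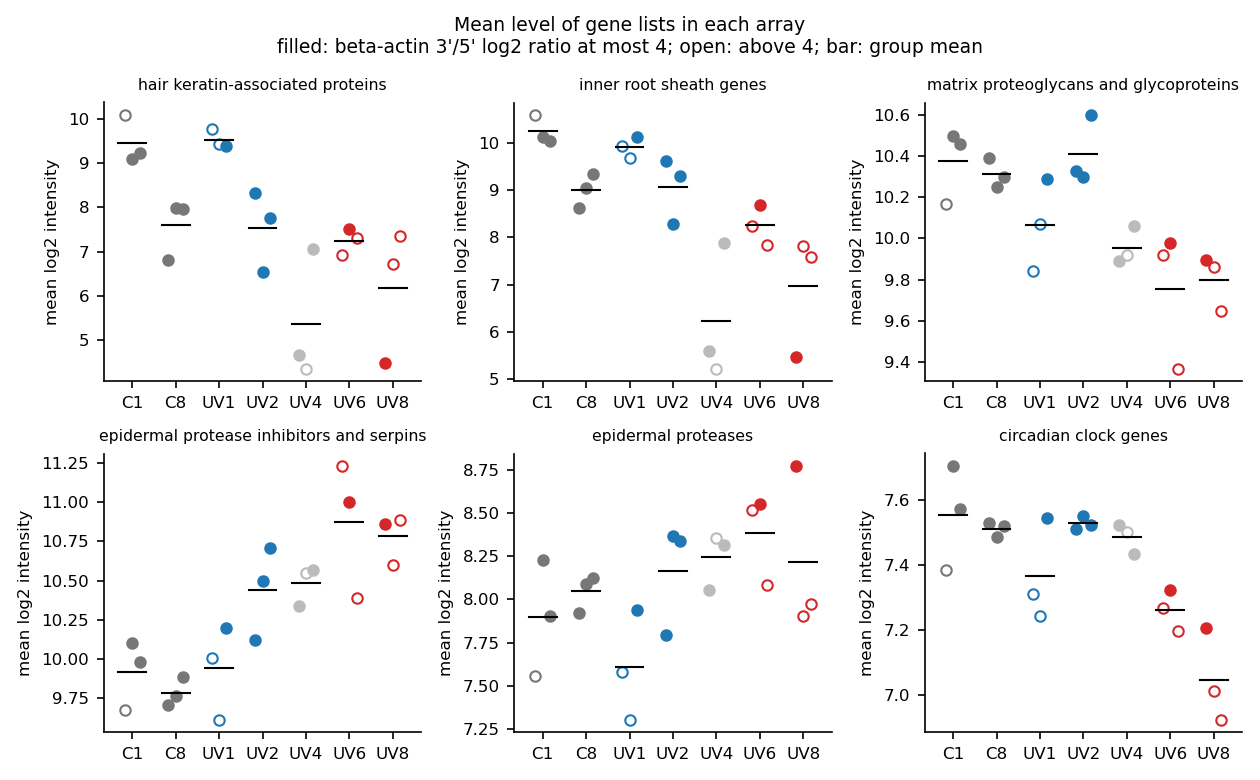
Mean log2 intensity over the tested members of 6 gene lists in each array (vertical axes), by group, with open points for arrays with a beta-actin ratio above 4 and a bar at each group mean. The keratin-associated proteins and inner root sheath genes were lowest in UV week 4 arrays 331 and 333 and in UV week 8 array 551, the matrix glycoproteins were lower in most late arrays while the control groups were alike (median change 0.00), and the protease inhibitors were higher in most late arrays (median change 0.43, and -0.10 between the control weeks).

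Other lists showed the makeup of the samples. Beside their counts, 2.75% of all genes were higher and 4.42% lower. Keratinocyte markers (Krt1, Krt5, Krt10 and Krt14) were high in all arrays, with a summed intensity of 28513 to 70097 early and 32706 to 66676 late, and none of the 4 passed. The hair matrix markers Krt31, Krt81 and Hoxc13 were all lower. Skeletal muscle genes had a median of -0.53, 5 of 28 being lower, but between 0 and 13 when 1 array was left out, with 0 without UV week 2 array 222 or UV week 8 array 555, 1 to 3 without any 1 of UV week 1 arrays 114 and 116, UV week 2 array 224, UV week 6 arrays 441 and 443 and UV week 8 array 552, and 13 without UV week 8 array 551, and the 4 muscle markers did not pass. There were 2 lower in the fit without the arrays of high ratio, with a median of -0.69. Cd207, langerin of Langerhans cells, was at 7.63, 7.97 and 8.38 in the early arrays and 6.60, 6.86 and 7.84 in the late arrays with overlap through UV week 8 array 551, and at 8.62 to 8.95 at UV week 4. It fell by 0.96 ± 0.19 (adjusted p = 0.00687), while Epcam, the other Langerhans cell marker, did not pass (adjusted p = 0.273). The mast cell tryptase Tpsab1 fell by 1.00 ± 0.19 (adjusted p = 0.0059), its early level being set by UV week 2 (6.40 to 7.44), whereas UV week 1 was at 4.63 to 5.49. The acute phase proteins Hp, haptoglobin, and Lrg1 fell by 1.09 ± 0.13 (adjusted p = 0.000272) and by 1.00 ± 0.22 (adjusted p = 0.0138), with -1.24 (adjusted p = 0.0151) and -0.93 between the control weeks. Neat1, a nuclear-retained RNA, fell by 0.94 ± 0.15 (adjusted p = 0.00206), 1 of 7 lower among 25 splicing factors and nuclear RNAs, a count that was 2 to 16 when 1 array was left out, 16 without UV week 8 array 551 and 2 to 4 without any 1 of the other arrays but UV week 1 arrays 112 and 114. No gene passed among 31 cell cycle, 30 respiratory chain, 15 endothelial, 13 sebaceous and 15 desmosome genes, except that without UV week 8 array 551 members of each did, and without UV week 1 array 112 (cell cycle) or UV week 8 array 555 (sebaceous) 1 did.

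**Figure D5:**
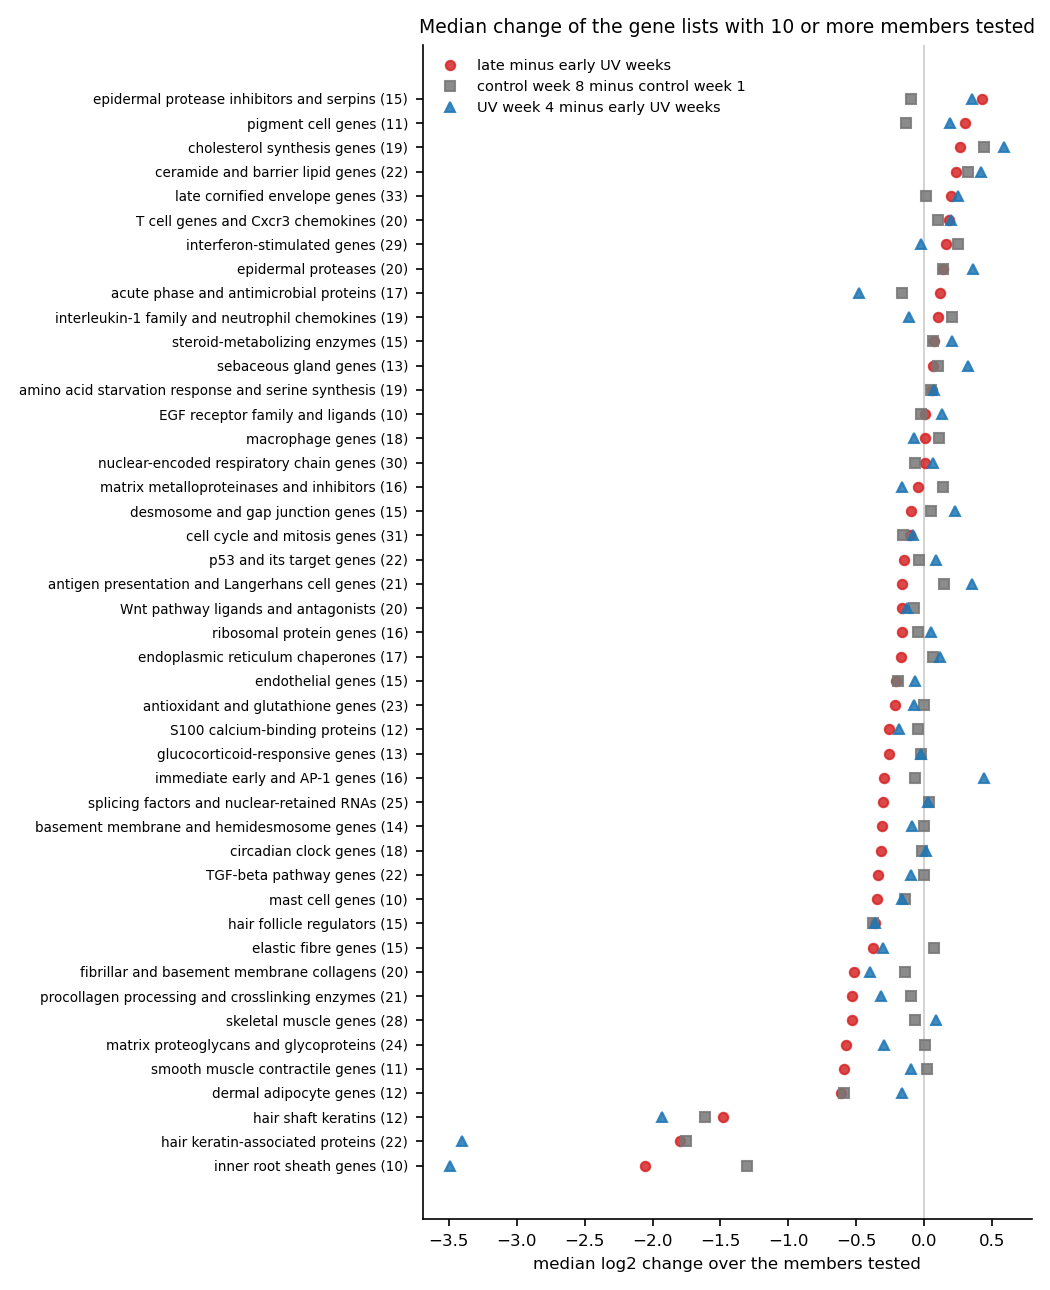
Median log2 change of the gene lists with at least 10 tested members (number in brackets), for late minus early UV weeks (red circles), control week 8 minus control week 1 (grey squares) and UV week 4 minus early UV weeks (blue triangles). The hair shaft keratins, keratin-associated proteins and inner root sheath genes were lowest in all 3 comparisons, the matrix lists were lower in the late weeks with controls near 0, and the protease inhibitors had the highest median in the late weeks (0.43).

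Beside the controls, fewer probe sets were called in the early weeks, pooled although not alike, than in the late weeks. At an unadjusted p of at most 0.05 (limma), 3872 probe sets (9.55%) differed between early weeks and control week 1. For late weeks against control week 1 the number was 15399 (38%). Early UV weeks against control week 1 gave 5 called probe sets (0.0123%), late UV weeks against control week 1 gave 1352 (3.33%) and UV week 8 against control week 8 gave 804 (1.98%). These comparisons share control arrays, and their counts moved with single arrays: early against control gave 3 to 55 (55 without control week 1 array 12, 18 without 16, 3 without 13, 9 without UV week 2 array 222 and 8 without UV week 1 array 116), late against control week 1 gave 612 to 2319 (612 without control week 1 array 13, 2117 without 12 and 2319 without UV week 8 array 551) and UV week 8 against control week 8 gave 160 to 402 without any array but UV week 8 array 551 and 3136 without it. Of the 24 genes with the largest changes without overlap, 20 passed the test of late against early in the fit without the arrays of high ratio, the other 4 being Bex1, Per2 (-1.28, adjusted p = 0.0814), Sema3d and Lhx2 (-1.18, adjusted p = 0.0756). All 123 genes called kept their direction in that fit. It used part of the arrays by which these genes were chosen, so neither count is an independent check. For genes without overlap the direction could not change.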

How the data were processed

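Dorsal skin RNA was measured on 21 Affymetrix Mouse Genome arrays, 3 for each of 7 groups. The deposited values are linear intensities for 45101 probe sets, which the authors summarised with the Microarray Suite 5 preprocessor of Expression Console according to the study's methods, whereas the submitters' processing notes name RMA. The values do not settle which was used, and they were not normalised again. Intensities were floored at 1 and taken to log2. Probe sets over the 20th percentile of at least 1 array were kept and the 64 control probe sets left out, which left 40540. Of these, 32317 had 1 gene symbol, 853 several and 7370 none in the platform annotation, and 17403 genes were each read at the probe set of highest mean.

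With limma 3.58.1 (lmFit and eBayes, R 4.3.3), 1 mean per group was estimated from the 21 arrays together, and late minus early is the mean of UV weeks 6 and 8 minus that of UV weeks 1 and 2. Benjamini-Hochberg adjustment of p-values ran over the 40540 probe sets. A probe set was called at 2-fold or more with an adjusted p no higher than 0.05, and list members were counted at that adjusted p with no minimum fold. Errors of fold changes are standard errors. The number of arrays limits the precision. The labels give each array as a separate mouse number. The scripts were tested on simulated data.

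The members of the comparison and the 49 gene lists were chosen with earlier results of these data known. Genes were named by a rule: the 12 largest called rises and falls without overlap between early and late arrays, up to 4 members of each list with the smallest adjusted p, up to 3 called rises and falls of UV week 2 against 1, UV week 8 against 6 and the difference from the controls, and genes of UV week 4 called outside both. Igha was added after its values were seen. Promoter sequences and gene symbols were matched through RefSeq tables (GRCm38.p6). Alternatives were other normalisations, floors and filters, covariates for RNA quality, subsets of arrays and weeks, and each array left out in turn. The fits with the control change taken off, and those of the controls, were chosen after seeing the data.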

Additional observations from a re-analysis of the deposited data

Results flagged for a closer look

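Among the 178 pairs of a named gene and a group of 6 arrays, 11 held an array whose gap to its nearest neighbour was over 0.625 of the range of the group, where chance gives about 1 in 20. In the early weeks the highest array was UV week 2 array 225 for Tmprss11a (5.78) and Serpinb6c (8.81). The lowest early array was UV week 2 array 222 for Klk13 (8.21), UV week 1 array 116 for Ifih1 (9.05), UV week 2 array 224 for Fabp4 (13.2) and UV week 1 array 114 for Lgr6 (6.25). In the late weeks the highest array was UV week 6 array 441 for Tmprss11d (5.12) and UV week 6 array 443 for Krt72 (7.19). UV week 8 array 551 was the lowest late array for Tacr3 (6.93), Krtap19-4 (3.73) and Padi3 (3.86).

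One probe set, to which the annotation gives several gene symbols, was the only one whose change from UV week 1 to UV week 8 differed from that between the control weeks, by 3.02 ± 0.42 (SE, adjusted p = 0.0347, limma). Its mean log2 intensity was 9.29 at UV week 1, 10.91 at UV week 8, 8.58 at control week 1 and 7.18 at control week 8.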

How the results depend on the processing

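Late against early gave 40 higher probe sets with 1 probe set for each gene, 46 higher and 78 lower with only the 12 arrays compared, 40 and 46 with 1 mean each for early and late, and 39 and 42 without arrays of a high beta-actin ratio (over 4). It gave 709 lower with UV week 2 alone as early, 51 lower with UV week 6 alone as late, 2 higher and 0 lower with the control change taken off (by limma), 1124 and 1276 with no minimum fold and 233 lower at 2-fold with no test. When each array was left out in turn, the counts ranged from 52 to 111 higher and from 79 to 634 lower, the highest without UV week 8 array 551. UV week 2 against UV week 1 gave 2 with no filter or 1 probe set for each gene and 0 with quantile normalisation, centring, a floor of 16, only the 12 arrays, or without the arrays of high ratio, and 0 to 515 with 1 array left out, 515 without UV week 1 array 116. UV week 8 against UV week 6 gave 5 without the arrays of high ratio and 0 to 10 with 1 array left out. The controls gave 48 and 35 with the beta-actin and Gapdh ratios as covariates, 59 without the array of high ratio, and 6 to 17. The difference from the controls gave 2 with quantile normalisation or the beta-actin covariate, 0 with a floor of 16 or 1 probe set for each gene, 5 with only the 4 groups compared, and 0 to 28 with 1 array left out, 28 without UV week 8 array 551. Early against control week 1 gave 44 with the beta-actin covariate, 99 without the arrays of high ratio and 3 to 55, late against control week 1 gave 872, 894 and 612 to 2319, and UV week 8 against control week 8 gave 183 without the arrays of high ratio and 160 to 3136. Of the 89 named genes, 85 kept their direction and their side of the threshold whichever array was left out, the others being Il1f6, Cyp26b1 and Krt6b, which no longer passed without some arrays, and Cxcl10, which passed without UV week 8 array 551. Without the arrays of high ratio 54 of the 89 no longer passed, and none changed direction. That fit used part of the same arrays, and for genes without overlap its direction could not change. With the control change taken off, 78 no longer passed and 9 reversed: Jchain (-0.51), Igkv8-30 (-0.020), Igha (-0.45), Arntl (-0.30), Krt83 (0.30), Krtap14 (0.27), Krtap19-4 (1.01), Fgf5 (0.40) and Hp (0.15). The cause was not tested. No paired analysis was possible because array numbers are not shared between groups. Transcripts near the bottom of the intensity scale, such as Tmprss11d, have changes that the background limits.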
